A study of Mus musculus with 9 samples.

Results

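The proliferative hub of a healing mouse tail wound was compared with unwounded epidermis over all genes on the array. The hub is the ring of skin behind the wound front in which basal keratinocytes divide. It was represented by 3 arrays labelled α5-integrin negative and set against 3 control arrays, which together are 6 of the 9 arrays of the series. All 9 samples were basal cells of the interfollicular epidermis of CD1 mice, an outbred strain, collected 4 days after a wound of 3 mm was made in the tail skin. The labels give hub cells as α6-integrin positive, CD34 negative and α5-integrin negative. In the study's description of the wound, the hub is the skin of a 6 mm punch left after a 4 mm punch has removed the wound front, but its account of the α5-integrin sort names only control skin and the 4 mm punch, so the punch from which these hub cells came is not settled. Control cells came from skin of the same time point far from the wound and were gated as α6-integrin positive and CD34 negative; the labels name no α5-integrin gate for them, while the account of the sort has basal cells of control skin stained for it too. The other 3 arrays held α5-integrin positive cells of the 4 mm punch, the leading edge, and entered the fit to estimate the spread. Each sample was 300 sorted cells whose cDNA was amplified before hybridisation. The methods describe pooling of several mice for samples run in duplicate and do not say whether these triplicate samples were pooled. The labels call the 3 samples of a group biological replicates and the methods describe technically independent samples, so the p-values reflect how far these samples scatter, and that scatter may be technical in origin.

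The basal layer is the only layer of the interfollicular epidermis in which keratinocytes normally divide. It rests on a basement membrane to which α6-integrin anchors it, and its cells express keratins 5 and 14. After wounding, keratinocytes next to the wound switch on stress keratins, alarmins and cytokines, and the epidermis closes the gap by movement of the front and division of the cells behind it. The comparison asks how the transcripts of cells in that dividing zone differed from those of undisturbed basal cells.

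Signals were log2 values from the robust multi-array average, a procedure that gives every array the same distribution of values, so a change in total RNA per cell cannot be seen and a difference of 1 means a 2-fold difference in signal. Of 17097 genes tested, each by its brightest probe set, a gene was called when its adjusted p from limma fell below 0.05. Where values of a gene stand as 3 numbers against 3, the first 3 are control arrays 1 to 3 and the others hub arrays 1 to 3. Differences are hub minus control with the standard error of the fit, for 3 arrays in each group. Probe sets that match no mouse transcript had a median of 4.66 and a 95th percentile of 7.40, which serves as the level below which a signal cannot be told from background. Where all 3 arrays of a group lay below that level, the size of the difference is not exact. This was so for 33 of the called genes named below. A lower bound of the fold sets the dim arrays at the background level and is written as at least so many fold. For Car9, Gata3, Gjb6, Hmox1, Irs1, Nqo1, P4ha3, Rbp2, Tob1, Trib3, Tubb3 and Usp2, whose differences are printed as fitted, that bound ran from 1.05-fold to 2.4-fold. For Cers3, E2f7, Ereg, Fads3, Fen1, Uty and Wnt5a both group means lay below the level and no bound can be had. A call is said to have held when it was also made with each of the 9 arrays left out in turn.

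Median signals of the arrays lay between 6.47 and 6.53, a closeness that the normalization itself brings about and that says nothing of quality. Arrays of the same group correlated at 0.9889 to 0.9952 over genes, and hub arrays correlated with control arrays at 0.9816 to 0.987. Keratin 5 (Krt5) stood at 13.33, 13.34 and 13.30 in the controls and 13.31, 13.31 and 13.26 in the hub, and keratin 14 (Krt14) at 13.28, 13.31 and 13.30 against 13.29, 13.26 and 13.29, near the top of the scale in every array. The transcript of the excluded bulge marker Cd34 lay at 4.60, 4.50 and 4.69 in the controls and 4.72, 4.74 and 4.77 in the hub, at background. Itga6, the gene of the gated α6-integrin, read 11.52, 11.64 and 11.57 in the controls and 11.76, 11.83 and 11.80 in the hub (difference 0.22 ± 0.06, adjusted p = 0.0757). Itga5, the gene of the α5-integrin by which hub and leading edge cells were separated, read 6.46, 6.23 and 6.50 against 6.46, 7.47 and 6.82 (adjusted p = 0.202).

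None of the 22 myeloid, 13 T cell, 11 melanocyte, 10 Merkel cell, 10 muscle and pericyte or 9 sebaceous gland markers measured was called. Their mean signals per array ran from 5.69 to 5.76 in the controls and 5.74 to 5.77 in the hub for myeloid markers, and from 6.55 to 6.62 and 6.52 to 6.65 for T cell markers. The defining leukocyte gene Ptprc lay at background, at 4.10, 4.06 and 4.19 in the controls and 4.25, 4.15 and 4.17 in the hub. The 14 endothelial markers held no call, but their mean signal was 6.20 to 6.43 in the controls and 6.44, 6.79 and 6.74 in hub arrays 1 to 3. Their defining member Cdh5, the vascular cadherin, read 6.45, 6.96 and 6.10 in the controls and 6.57, 8.39 and 8.42 in the hub, so hub arrays 2 and 3 stood above hub array 1 and all controls. Of 15 fibroblast markers, the collagens Col1a1 (6.65, 6.71 and 6.77 against 6.93, 6.76 and 6.62) and Col1a2 (4.61, 4.69 and 4.74 against 4.70, 4.64 and 4.67) stayed below the background level in both groups, while 1 member was called higher and 2 lower. Of 11 Langerhans cell markers 1 was called higher and 1 lower (0 without hub replicate 3). Of 16 bulge and isthmus markers 2 were lower (1 without any leading edge replicate, hub replicate 3 or control replicates 1 or 3), and of 14 hair shaft and root sheath markers 2 were lower (1 without hub replicate 2). Over all genes tested, 4.16% were called higher and 3.12% lower, and in lists this short a single call is a larger share than that. The part of these cell types in the results was not tested. In bulk samples such as these, fewer cells of a type and less RNA per cell cannot be told apart.

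Transcripts linked to the sex chromosomes also moved with the groups. Xist, the X-inactivation RNA, read 11.60, 11.61 and 11.59 in the controls and 9.65, 10.12 and 9.92 in the hub, a fall of 1.71 ± 0.11. The Y-linked genes Uty (6.02, 6.45 and 6.05 against 6.94, 6.98 and 7.40) and Eif2s3y (8.58, 8.54 and 8.90 against 9.26, 9.26 and 9.22) were called higher in the hub, Uty at or below the background level in all 6 arrays. The labels give no sex. Over the 609 genes of the X and Y chromosomes, 16 were called higher (2.63%) and 15 lower (2.46%), against 4.16% and 3.12% of all genes. The part that a different mix of animals between samples had in the results below was not tested. With those 609 genes left aside, 695 genes were higher and 518 lower.

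In all, 1244 genes (7.28%) were called, of which 711 were higher in the hub (4.16%) and 533 lower (3.12%). Most differences were small, with a median of 0.54 among genes called higher and -0.59 among those called lower, while the median over all genes was 0.03. A difference of at least 2-fold was called for 100 genes that were higher (0.585%) and 86 that were lower (0.503%). The 3 hub arrays and the 3 control arrays did not overlap for 4067 genes (23.8%), and these included all 1244 called genes. The counts of called members of each gene list, above and below, are to be read against the shares of 4.16% and 3.12%.

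Of the called genes, 311 higher and 255 lower held with each array left out in turn. The number called was 774 without hub replicate 2, 699 without hub replicate 3 and 766 when the leading edge arrays were left out of the fit. The share of calls that were higher was 57.15% as deposited, 50% after a further quantile normalization, and 46.99% after centring each array on its median, so the balance of rises and falls depended on the scaling.

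**Figure D1:**
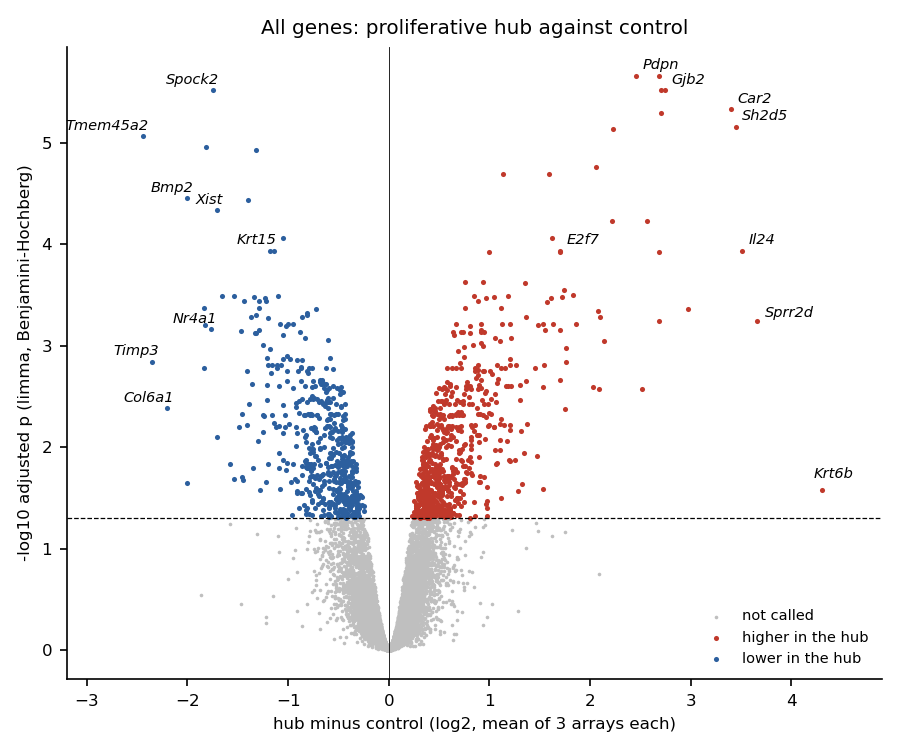
Difference between the hub and the control (x axis, log2) against -log10 of limma's adjusted p (y axis) for all 17097 genes, with the dashed line at an adjusted p of 0.05. Red points are the 711 genes called higher and blue points the 533 called lower, and named genes are among those described in the text.

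The 15 largest rises that held ran from 2.23 to 3.66 on the log2 scale as fitted. Sprr2d, a small proline-rich protein that is cross-linked into the cornified envelope, read 5.93, 7.16 and 7.22 in the controls and had a mean of 10.42 in the hub, where the lowest array stood at 10.00. The controls lay below background, so the rise was at least 8.16-fold (adjusted p = 0.000577). Its relative Sprr2h read 6.48, 6.79 and 7.40 against 9.38, 10.43 and 9.76 (2.97 ± 0.28). Il24, a cytokine of the interleukin-10 family that acts on keratinocytes, rose from 6.23, 6.48 and 6.18, below background, to 9.15, 10.40 and 9.86, at least 5.31-fold (adjusted p = 0.000116). In all of these genes the lowest hub array lay above the highest control array by at least 1.98 log2 units.

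Car2, a cytosolic carbonic anhydrase, was at 7.79, 8.41 and 7.90 in the controls and 11.27, 11.47 and 11.55 in the hub, a rise of 3.40 ± 0.15 (adjusted p = 4.71e-06). Gjb2, which encodes the gap junction protein connexin 26, was at 9.67, 9.27 and 9.28 against 12.06, 12.20 and 12.20 (2.75 ± 0.11). Has3, a hyaluronan synthase, went from 6.37, 6.54 and 6.31, below background, to 8.93, 9.33 and 9.08, at least 3.28-fold higher. No hub array overlapped a control array in these genes. Procr, the endothelial protein C receptor, read 7.01, 6.82 and 6.77 in the controls and 9.44, 9.52 and 9.77 in the hub, and Pdpn, the membrane glycoprotein podoplanin, read 8.62, 8.41 and 8.46 against 10.85, 11.05 and 10.96. Both are also used as markers of other cell types, and the endothelial marker values are given above; their part in these rises was not tested. The remaining genes among the 15 largest rises were Sh2d5 (3.45 ± 0.17), which encodes an SH2 domain protein, 2610528A11Rik (2.69 ± 0.10), also known as Gpr15l, which encodes a secreted ligand of the receptor GPR15, Smim3 (2.68 ± 0.20), the actin-binding caldesmon gene Cald1 (2.68 ± 0.26), the desmosomal cadherin gene Dsc2 (2.57 ± 0.17), the alarmin gene S100a8 (2.51 ± 0.34) and the carboxypeptidase gene Cpn1 (2.23 ± 0.11). With controls below background, the rise was at least 4.53-fold for Procr, 4.65-fold for Sh2d5, 4.09-fold for Cpn1, 4.2-fold for Dsc2 and 3.57-fold for Cald1. It was at least 4-fold for Smim3.

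**Figure D2:**
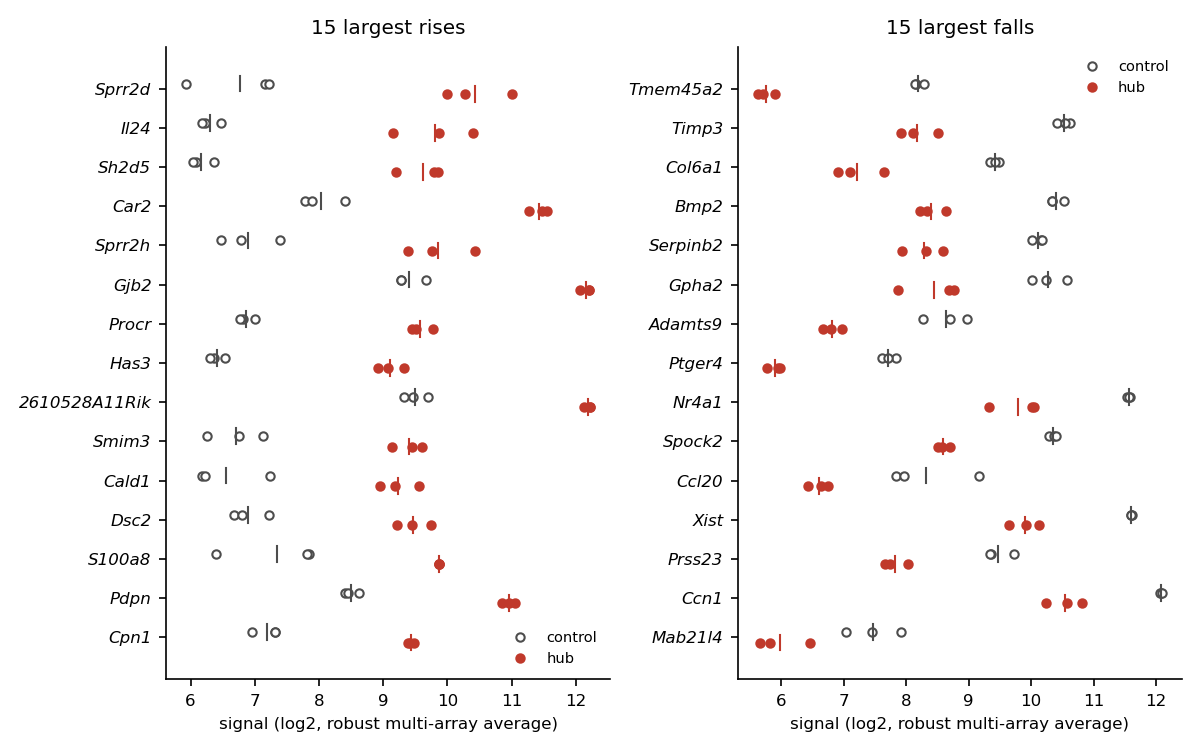
Signal (x axis, log2) in each of the 3 control arrays (open circles) and 3 hub arrays (filled circles) for the 15 largest rises and the 15 largest falls that held with each array left out, with a bar at each group's mean. In every gene shown the circles of the groups do not overlap.

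The 15 largest falls that held ran from -1.48 to -2.45. Tmem45a2, a transmembrane protein gene, read 8.16, 8.14 and 8.29 in the controls and 5.63, 5.91 and 5.72 in the hub, a fall to below background of at least 1.74-fold (adjusted p = 8.65e-06). Timp3, a matrix-bound inhibitor of metalloproteinases, read 10.62, 10.42 and 10.54 against 8.12, 8.50 and 7.92, a 5.09-fold lower signal (adjusted p = 0.00144), and its 4 probe sets differed by -2.85 to -2.24. Bmp2, a ligand of the bone morphogenetic protein family, read 10.34, 10.33 and 10.52 against 8.33, 8.64 and 8.21 (-2.00 ± 0.12). No hub array came within 1.69 log2 units of a control array in these genes.

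Col6a1, a chain of collagen VI, read 9.49, 9.35 and 9.42 in the controls and 7.64, 7.10 and 6.91 in the hub (-2.20 ± 0.33). It is a fibroblast gene in skin, and another fibroblast marker, the proteoglycan gene Dcn, fell with it (8.84, 8.54 and 8.56 to 7.64, 7.36 and 7.66, -1.10 ± 0.20), while the third called marker of that list, the matrix gene Fbln1, rose (10.17, 9.80 and 9.69 to 11.06, 11.18 and 11.03). Whether fibroblast RNA had a part in the fall of Col6a1 was not tested. Ptger4, a receptor for prostaglandin E2, read 7.83, 7.61 and 7.71 against 5.99, 5.96 and 5.77 (-1.81 ± 0.09, adjusted p = 1.1e-05), and Spock2, a matrix proteoglycan gene, read 10.28, 10.37 and 10.39 against 8.71, 8.51 and 8.57 (-1.75 ± 0.07). Gpha2, a glycoprotein hormone subunit gene, read 10.23, 10.57 and 10.02 against 8.69, 7.86 and 8.76 (-1.84 ± 0.22). The same set held Serpinb2 (-1.84 ± 0.17), the protease gene Adamts9 (-1.83 ± 0.19), the chemokine gene Ccl20 (-1.71 ± 0.29), the serine protease gene Prss23 (-1.66 ± 0.14), Mab21l4 (-1.48 ± 0.24), Xist and the early response genes Nr4a1 and Ccn1 described further on. Hub arrays lay below background for Adamts9, Ccl20, Ptger4 and Mab21l4, which were lower by at least 2.37-fold, 1.89-fold, 1.25-fold and 1.05-fold.

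The hub is named for its proliferation. Some genes of DNA synthesis and mitosis were higher in it than in the control, by less than 2-fold in most cases. Of 47 measured genes of replication licensing and the replication fork, 14 were called higher and none lower, with a median of 0.31 against 0.03 for all genes. The list mean was 8.46, 8.56 and 8.48 in the control arrays and 8.83, 8.77 and 8.82 in the hub arrays. In the leading edge arrays it was 8.82, 8.61 and 8.75. Mcm5, a subunit of the replicative helicase, read 11.08, 11.27 and 11.26 in the controls and 11.84, 11.71 and 11.73 in the hub (0.56 ± 0.08, adjusted p = 0.00297). Cdt1, which loads that helicase onto origins, read 9.86, 9.66 and 9.77 against 10.27, 10.28 and 10.36 (0.54 ± 0.08). Wdhd1, a replisome component, and Fen1, the flap endonuclease, differed by 0.65 ± 0.07 and 0.51 ± 0.08, although Fen1 lay below background in all 6 arrays. Only these 4 held with each array left out, and the count was 6, 8 and 4 without hub replicates 1, 2 and 3, and 6 and 9 without control replicates 1 and 3.

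Nucleotide synthesis supplies the building blocks of DNA. Of 20 genes of the pathway measured, 9 were called higher and none lower, 7 of them with each array left out, and the median was 0.36. Rrm2, the regulated subunit of ribonucleotide reductase, read 10.13, 10.17 and 10.43 in the controls and 11.05, 11.02 and 11.16 in the hub (0.83 ± 0.09, adjusted p = 0.000982). Ppat, which commits phosphoribosyl pyrophosphate to purine synthesis, read 8.81, 9.22 and 8.83 against 9.90, 9.80 and 9.82 (0.88 ± 0.14). The purine gene Pfas (0.62 ± 0.11), the pyrimidine gene Cad (0.60 ± 0.09) and the mitochondrial one-carbon gene Shmt2 (0.48 ± 0.08) were also higher, and the groups did not overlap for any of them. Thymidylate synthase (Tyms), by contrast, read 10.33, 10.75 and 10.56 against 10.87, 10.64 and 10.84 and was not called (adjusted p = 0.317).

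Among 73 genes of the mitotic spindle, kinetochore and cytokinesis, 11 were called higher and none lower, and the median was 0.17. The mean of this list was 8.32, 8.38 and 8.31 in the control arrays and 8.53, 8.40 and 8.61 in the hub arrays. It was 8.76, 8.54 and 8.59 in the leading edge arrays, so the rise was not particular to the hub. Ttk, a spindle checkpoint kinase, read 8.19, 7.89 and 8.13 in the controls and 8.83, 8.52 and 8.88 in the hub (0.67 ± 0.12), and Pttg1, the securin that guards sister chromatid separation, read 10.46, 10.30 and 10.26 against 10.83, 10.85 and 11.01 (0.56 ± 0.08). Those were the members that held, although the second probe set of Ttk differed by -0.09. Plk1, a mitotic kinase, read 9.31, 9.60 and 9.16 against 9.79, 9.90 and 10.01 (adjusted p = 0.0252) and lost its call without hub replicates 2 or 3 or control replicates 1 or 3. Without 1 array the count of 11 fell to 7 and 4 (leading edge replicates 2 and 3), 3, 6 and 2 (hub replicates 1 to 3) and 3, 6 and 4 (control replicates 1 to 3).

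Several usual markers of cycling cells were not among the called genes. Others were, such as the mitotic genes Aurka (0.34 ± 0.08) and Cdc20 (0.44 ± 0.11). These lost their calls in 5 and 8 of the 9 fits with an array left out. Mki67, the proliferation antigen Ki67, read 10.33, 10.32 and 10.44 in the controls and 10.48, 10.38 and 10.57 in the hub (0.11 ± 0.08, adjusted p = 0.537). The replication clamp gene Pcna read 11.26, 11.30 and 11.20 against 11.43, 11.32 and 11.18, and Top2a, a topoisomerase of dividing cells, read 8.53, 8.79 and 8.84 against 8.76, 8.72 and 8.83. In these 3 genes hub and control arrays overlapped. Ccna2, the cyclin of S phase, read 11.01, 10.97 and 10.67 against 11.20, 11.12 and 11.20 (0.29 ± 0.10, adjusted p = 0.128), and Ccnd1, the cyclin of G1, read 11.63, 11.67 and 11.52 against 11.74, 11.71 and 11.82 (0.15 ± 0.07, adjusted p = 0.256), and neither was called although the groups did not overlap. Of 18 cyclins, cyclin-dependent kinases and their direct partners, only the kinase subunit gene Cks1b was called higher (0.41 ± 0.07) and only the inhibitory kinase gene Wee1 lower (-0.60 ± 0.09).

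**Figure D3:**
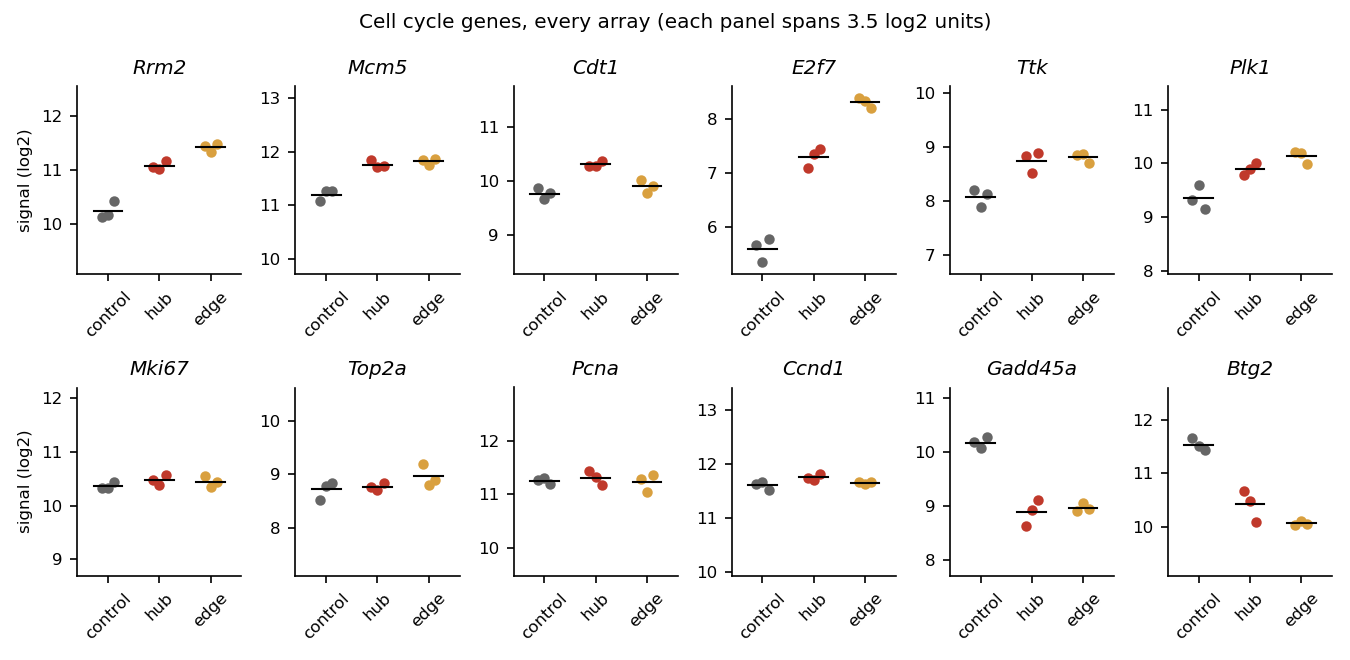
Signal (y axis, log2) of 12 cell cycle genes in each of the 3 control, 3 hub and 3 leading edge arrays, with a line at the group mean and every panel spanning the same range. Rrm2, Mcm5, Cdt1, E2f7 and Ttk stood higher in every hub array than in any control array, Mki67, Top2a and Pcna overlapped, and Gadd45a and Btg2 stood lower.

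Regulators of the cycle changed in both directions. E2f7 and E2f8, the atypical E2F factors that repress E2F target genes, were both higher. E2f7 read 5.66, 5.35 and 5.78 against 7.10, 7.35 and 7.44 (1.70 ± 0.13), and E2f8 read 7.72, 7.64 and 7.74 against 8.41, 8.81 and 8.76 (0.96 ± 0.13). For E2f7 the controls and hub arrays 1 and 2 were below background, so no fold is given. The activator E2f1 differed by 0.10 ± 0.10 (adjusted p = 0.69) and the mitotic activator Foxm1 by 0.18 ± 0.09 (adjusted p = 0.339), and neither was called. Of 31 cell cycle inhibitors and quiescence genes, 10 were called lower and none higher, 9 of them with each array left out, with a median of -0.26. Gadd45a, a stress gene that restrains the G2 to M transition, read 10.19, 10.07 and 10.28 against 8.63, 8.92 and 9.12 (-1.29 ± 0.12, adjusted p = 0.000423). The antiproliferative genes Tob1 (-1.23 ± 0.11), Btg2 (-1.11 ± 0.13) and Btg1 (-0.63 ± 0.08), the cell cycle regulator Rgcc (-1.20 ± 0.12) and the atypical cyclin Ccng2 (-0.87 ± 0.11) fell as well. The classical inhibitors Cdkn1a, encoding p21 (-0.07 ± 0.06, adjusted p = 0.612), and Cdkn1b, encoding p27 (-0.29 ± 0.16, adjusted p = 0.362), were not called.

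Promoters of 13605 of the tested genes, from 250 bases before to 50 after the start site in RefSeq on build GRCm38.p6, were searched on both strands for 8 short motifs. The E2F site (TTTCGCGC or TTTGGCGC) was found in 14 of 37 promoters of the licensing and fork list (37.8%) against 1.45% of all promoters, and 3 of the 9 promoters of called members held it. The cell cycle homology region (TTTGAA) was found in 40 of 60 mitotic promoters (66.7%) against 15.6% of all, and in 7 of the 9 of called members. The CCAAT box (CCAAT) was in 43 of those 60 (71.7%) against 42.3%. These letters describe the lists as a whole, members that were not called included, and a match is not a bound site. For the called members Mcm5, Cdt1, Ttk and Plk1 the stretch around the match is printed 5′ to 3′ on the strand of the gene, with the match in capitals. Only bases up to the start site are shown where the match lies before it, and at most 30 where it lies after. In Mcm5 a site on each strand overlaps the other, and in Ttk the match is on the reverse strand.
Mcm5, chr8:75109316-75109407, plus strand: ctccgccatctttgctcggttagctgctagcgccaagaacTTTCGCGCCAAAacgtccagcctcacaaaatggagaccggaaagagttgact
Cdt1, chr8:122568037-122568064, plus strand: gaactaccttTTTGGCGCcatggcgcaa
Ttk, chr9:83834686-83834715, plus strand: gcggggaaatTTCAAAcgtgtttccggaga
Plk1, chr7:122159455-122159484, plus strand: cagcgccgcgTTTGAAttcggggaggagcg

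Of 40 genes of ribosome biogenesis and the Myc network, 8 were called higher and 2 lower (median 0.23), and the nucleolar gene Utp4 (9.12, 9.16 and 9.48 to 9.70, 9.86 and 9.91, 0.57 ± 0.10) held in every fit. Without 1 array the 8 became 5 (leading edge replicate 3), 2, 1 and 1 (hub replicates 1 to 3) and 4, 5 and 5 (control replicates 1 to 3). The members that were lower were the transcription factors themselves, Myc (11.38, 11.46 and 11.41 to 11.09, 11.02 and 10.98, -0.39 ± 0.07, adjusted p = 0.0112, lost without hub replicate 3) and its antagonist Mxd4 (-0.50 ± 0.09). Mxd4 fell by its brightest probe set alone. Of 20 nuclear transport and chaperonin genes, 4 were called higher, 2 without hub replicates 1 or 3, and none lower (median 0.19). Those that held were Ranbp1, a cofactor of the Ran GTPase (0.43 ± 0.08), and Phb, prohibitin (0.50 ± 0.08).

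Immediate early genes, which cells switch on within minutes of a stimulus, were lower in the hub than in the control. Of 41 measured, 25 were called lower and none higher, 19 of them with each array left out, and the median was -0.52. The list mean was 10.46, 10.42 and 10.38 in the control arrays and 9.96, 9.94 and 9.71 in the hub arrays. Nr4a1, an orphan nuclear receptor, read 11.58, 11.54 and 11.56 in the controls and 10.04, 10.01 and 9.32 in the hub, a 3.41-fold lower signal (adjusted p = 0.000689). Ccn1, a matricellular protein also known as a YAP target, read 12.08, 12.06 and 12.09 against 10.82, 10.57 and 10.24 (-1.53 ± 0.13). The controls of these genes lay within 0.04 log2 units of each other and hub array 3 was the lowest. In the study's methods, skin was digested with trypsin and cells were mechanically separated before sorting. Whether that handling had a part in the levels of immediate early genes was not tested.

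Subunits of the AP-1 transcription factor did not move by the same amount. Fosl1 read 11.42, 11.51 and 11.50 in the controls and 10.18, 10.45 and 9.93 in the hub (-1.29 ± 0.12), and Jun read 11.98, 11.95 and 11.90 against 11.22, 11.12 and 10.90 (-0.86 ± 0.10). Junb (-0.57 ± 0.09) and Fosb (-0.55 ± 0.09) fell less, and Fos, near the top of the scale at 12.85, 12.89 and 12.89 against 12.70, 12.67 and 12.60, was not called (-0.22 ± 0.06, adjusted p = 0.0693). The zinc finger factor Egr1 (-0.67 ± 0.09) and the stress factor Atf3 (12.70, 12.70 and 12.72 to 12.05, 11.83 and 11.62, -0.87 ± 0.11) were lower, as were the NF-κB inhibitor Tnfaip3 (-1.05 ± 0.18) and the phosphatase gene Dusp1 (-0.62 ± 0.08). Values near the ceiling of the scale may be compressed, so small differences there may understate the change. In the leading edge Nr4a1 read 9.13, 8.79 and 9.17 and Jun read 10.93, 10.70 and 10.67.

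**Figure D4:**
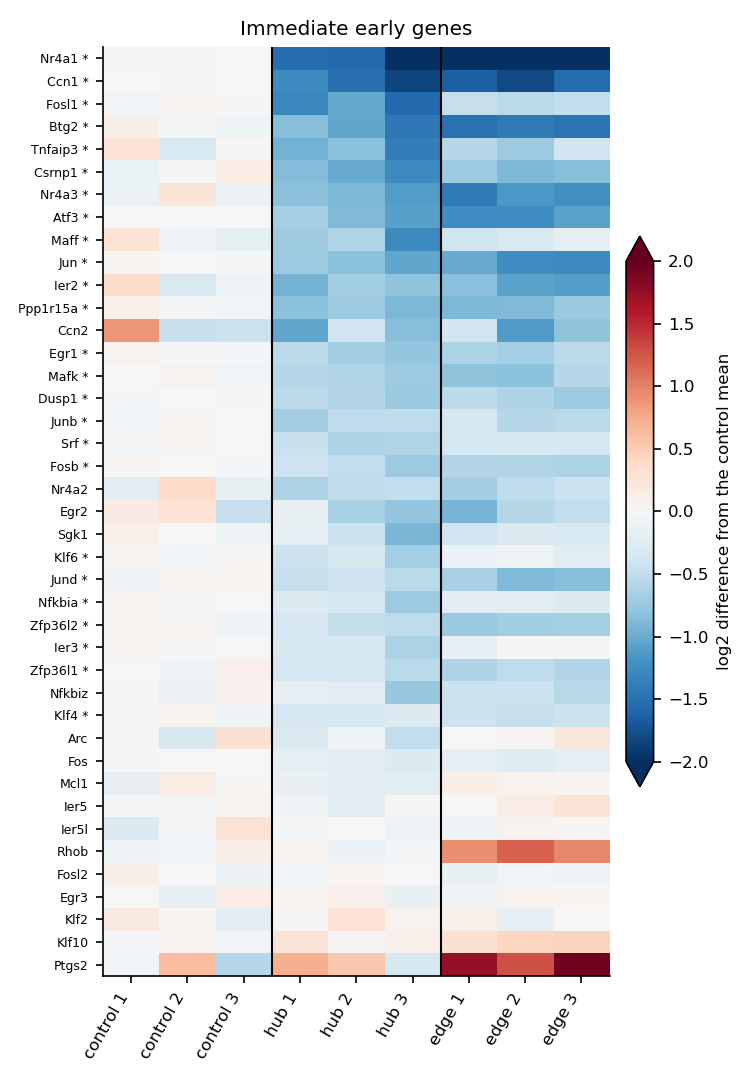
Difference of each array from the mean of the 3 control arrays (colour, log2) for the 41 measured immediate early genes (rows, ordered by the hub mean, called genes marked with an asterisk) in the 9 arrays (columns; edge is the leading edge). The hub columns are blue for most rows, from Nr4a1 at -1.77 on average to genes near 0, and Rhob and Ptgs2 stand above the control mean in all 3 edge columns.

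The cAMP response element (TGACGTCA) was present in the promoters of 4 of 32 immediate early genes (12.5%) against 2.93% of all promoters. All 4 were called lower, but so were 21 of the 32 as a whole. The AP-1 site (TGANTCA) was in 3 of the 32 (9.38%, against 7.71%), the E-box (CACGTG) in 9 (28.1%, against 10.2%) and the CArG box of serum response factor in 2 (6.25%, against 1.65%). Of the 2 with a CArG box, Srf was called lower and Egr2 was not called (-0.52 ± 0.22, adjusted p = 0.233). The 4 genes with the response element and Srf are shown on the strand of the gene, with the match in capitals. The bases are RefSeq sequence and were not measured in these samples.
Btg2, chr1:134079274-134079361, minus strand: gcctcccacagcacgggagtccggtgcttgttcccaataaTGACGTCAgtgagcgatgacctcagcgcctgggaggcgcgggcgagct
Dusp1, chr17:26508568-26508655, minus strand: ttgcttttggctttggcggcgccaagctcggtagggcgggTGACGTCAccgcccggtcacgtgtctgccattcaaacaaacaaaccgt
Maff, chr15:79347451-79347519, plus strand: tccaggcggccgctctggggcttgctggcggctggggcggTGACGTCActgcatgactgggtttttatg
Ppp1r15a, chr7:45526269-45526320, minus strand: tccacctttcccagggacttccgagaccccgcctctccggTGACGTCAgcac
Srf, chr17:46556175-46556284, minus strand: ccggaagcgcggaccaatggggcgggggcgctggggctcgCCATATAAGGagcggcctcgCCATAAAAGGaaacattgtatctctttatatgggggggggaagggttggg

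These 5 genes covered a wide range of signal. Btg2 read 11.65, 11.50 and 11.44 in the controls and 10.68, 10.49 and 10.10 in the hub, Ppp1r15a, a stress gene that reverses translational arrest, read 8.97, 8.83 and 8.82 against 8.06, 8.14 and 7.98 (-0.81 ± 0.08, adjusted p = 0.000504), and Srf read 11.09, 11.15 and 11.11 against 10.67, 10.50 and 10.52 (-0.56 ± 0.07). Maff, a small Maf factor, read 9.18, 8.84 and 8.71 against 8.19, 8.30 and 7.63 (-0.87 ± 0.18), and its call was lost without control replicate 1. Maff, Ppp1r15a and Srf are named here because they hold the motif, after their values were seen.

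Some members of the immediate early list also stand in other lists. Of 26 genes of FGF signalling and ERK feedback, 4 were lower and none higher, with the feedback inhibitor Spred1 at 9.67, 9.60 and 9.62 in the controls and 9.02, 8.88 and 8.94 in the hub (-0.68 ± 0.09) and the receptor Fgfr2 lower as well (-0.42 ± 0.07). Of 25 YAP and TAZ targets, 6 were lower and none higher, among them the phosphatase gene Ptpn14 (-1.02 ± 0.13), the transmembrane BMP regulator Crim1 (-0.82 ± 0.12) and the tissue factor gene F3 (-1.25 ± 0.19). Of 21 glucocorticoid-responsive genes, 8 were lower and 2 higher (1 in 6 of the 9 fits with an array left out). Klf9, a Krüppel-like factor, read 10.53, 10.46 and 10.54 against 9.39, 9.41 and 9.57 (-1.05 ± 0.07), Zbtb16 differed by -0.75 ± 0.11 and the chaperone Fkbp5 by -0.47 ± 0.08, whereas Tsc22d3 differed by 0.07 ± 0.11 (adjusted p = 0.829). Klf9 has 5 probe sets, of which 4 were called lower and the one of middle rank differed by 0.08. Of the 3 probe sets of Fkbp5 only the brightest was called, and the others reached 0.14.

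Of 17 circadian clock genes, 5 were lower and none higher, and all 5 held. Arntl, the activator at the centre of the clock, read 9.45, 9.61 and 9.23 in the controls and 8.04, 8.32 and 7.85 in the hub (-1.37 ± 0.13, adjusted p = 0.000516). Its dimmer probe set differed by -0.27 and was not called. The clock-controlled protease gene Usp2 (-1.20 ± 0.14), the repressor Bhlhe40 (-0.88 ± 0.09), the nuclear receptor Nr1d2 (-0.68 ± 0.10) and Per1 (-0.41 ± 0.08) were lower too. Per2 (-0.08 ± 0.18, adjusted p = 0.88) and Per3 (0.21 ± 0.09, adjusted p = 0.247) were not called, and Per2 and Dbp lay below background in both groups. The labels give no hour of collection, so the time of day at which hub and control cells were taken could not be compared.

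Chaperones changed in both directions. Of 28 measured, 6 were lower and held in every fit, and 5 were higher. The cytosolic heat shock genes Hspa1b (12.15, 12.05 and 12.01 to 11.64, 11.59 and 11.61, -0.46 ± 0.07), Dnajb1 (-0.43 ± 0.06), Hspb1 (-0.37 ± 0.06) and Hspb8 (-0.71 ± 0.11) were lower, as was Dnajb9 of the endoplasmic reticulum (8.97, 8.98 and 8.55 to 7.74, 7.88 and 7.73, -1.05 ± 0.15). The higher members included Pdia4 (0.47 ± 0.10) and Dnajb11 (0.39 ± 0.08) of the endoplasmic reticulum, but their count fell to 0 without hub replicate 1 or 3, to 1 without hub replicate 2, and to 2 or 3 without any other array. The central chaperone Hspa5 was not called (-0.15 ± 0.08, adjusted p = 0.35).

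Of 32 genes of glycolysis and the hypoxia response, 12 were higher and none lower (median 0.22), 7 of them with each array left out and also 7 without hub replicate 3. Slc16a3, a lactate exporter, read 8.58, 8.30 and 8.06 in the controls and 9.75, 9.65 and 10.20 in the hub (1.55 ± 0.16, adjusted p = 0.000701), and its relative Slc16a1 read 9.67, 9.89 and 9.85 against 10.48, 10.64 and 10.71 (0.81 ± 0.09). The glucose transporter Slc2a1 (0.41 ± 0.07), the oxygen-regulated factor Hif1a (0.53 ± 0.08; -0.25 and not called by its dimmer probe set) and the mitophagy gene Bnip3 (0.91 ± 0.12) were higher. Hk2, a hexokinase (-0.19 ± 0.11, adjusted p = 0.392), and Vegfa, the vascular growth factor (0.21 ± 0.15, adjusted p = 0.535), were not called.

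Carbonic anhydrases, which interconvert carbon dioxide and bicarbonate, include Car2, described above. Of 12 measured, Car2, Car9, Car12 and Car13 were called higher and none lower, and Car13 lost its call whichever array was left out. Car9, a hypoxia-induced form on the cell surface, read 6.36, 6.42 and 6.80 in the controls and 7.50, 7.41 and 7.51 in the hub (0.94 ± 0.12), and Car12 read 10.54, 10.65 and 10.59 against 10.92, 10.93 and 10.95 (0.34 ± 0.06). Among 47 genes of the respiratory chain and citrate cycle, 2 were higher and none lower, the complex component gene Ndufa4 (0.46 ± 0.07) and Cycs (0.28 ± 0.07), which lost its call in 8 of the 9 fits with an array left out.

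NRF2 is the factor that drives the antioxidant response. Of 30 of its targets measured, 9 were higher, 7 of them in every fit, and 2 were lower (1 without hub replicate 3; median 0.23). Gsta4, a glutathione transferase for lipid peroxidation products, had a mean of 9.15 in the controls and read 10.74, 10.66 and 10.82 in the hub (1.59 ± 0.09, adjusted p = 2.02e-05), and Akr1b8, an aldo-keto reductase, read 8.13, 8.62 and 8.21 against 9.57, 9.62 and 9.85 (1.36 ± 0.13). Hmox1, heme oxygenase, crossed the background level, from 7.21, 6.66 and 7.17 to 8.11, 8.21 and 8.33 (1.20 ± 0.14). The quinone reductase gene Nqo1 (0.99 ± 0.16) and the glutathione synthesis gene Gclm (0.82 ± 0.11) were higher, while the transferase gene Gstm1 was lower (-0.60 ± 0.12, lost without hub replicate 3). The antioxidant response element (TGACNNNGC) was in 9 of 25 promoters of this list (36%) against 16.1% of all promoters, but also in 11 of the 32 promoters of the immediate early list (34.4%).

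Lipid and amino acid genes gave mixed results. Sqle, the squalene epoxidase of cholesterol synthesis, read 8.39, 8.04 and 7.59 in the controls and 9.25, 9.53 and 9.33 in the hub (1.36 ± 0.18), whereas Msmo1 of the same pathway was lower (-0.82 ± 0.16), and 2 of 19 genes of the pathway were higher in all (1 without hub replicate 2 or 3). Fabp5, the epidermal fatty acid binding protein, read 12.42, 12.16 and 11.93 against 13.06, 13.04 and 13.06 (0.89 ± 0.11), and the desaturase-related Fads3 (0.95 ± 0.14) and the ceramide synthase Cers3 (0.89 ± 0.15) were higher. Of 36 genes of fatty acids and barrier lipids 5 were higher (3 without hub replicate 2 or 3) and 1 lower (0 without either of these). Of 30 amino acid transport and ATF4 target genes, 5 were higher (3 without hub replicate 3) and 2 lower. Trib3, a pseudokinase induced by stress, rose from 6.80, 6.73 and 7.23 to 8.14, 8.11 and 8.16 (1.22 ± 0.13), while the glutamine transporter Slc38a2 was lower (-0.72 ± 0.07). Ass1, the arginine-producing enzyme of the urea cycle, read 8.68, 9.08 and 8.64 against 10.15, 10.08 and 10.23 (1.35 ± 0.11), and Odc1, the first enzyme of polyamine synthesis, read 8.93, 9.06 and 8.76 against 9.82, 9.70 and 9.99 (0.92 ± 0.10). The dimmer probe set of Ass1 differed by 0.12 and was not called. The polyamine acetyltransferase Sat1 fell (-0.61 ± 0.08), one of 3 lower members of a list of 12 (1 without hub replicate 3), and Arg1, an arginase, stayed below background (6.34, 6.22 and 5.91 against 6.59, 6.74 and 6.25). None of 5 metallothioneins was called.

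**Figure D5:**
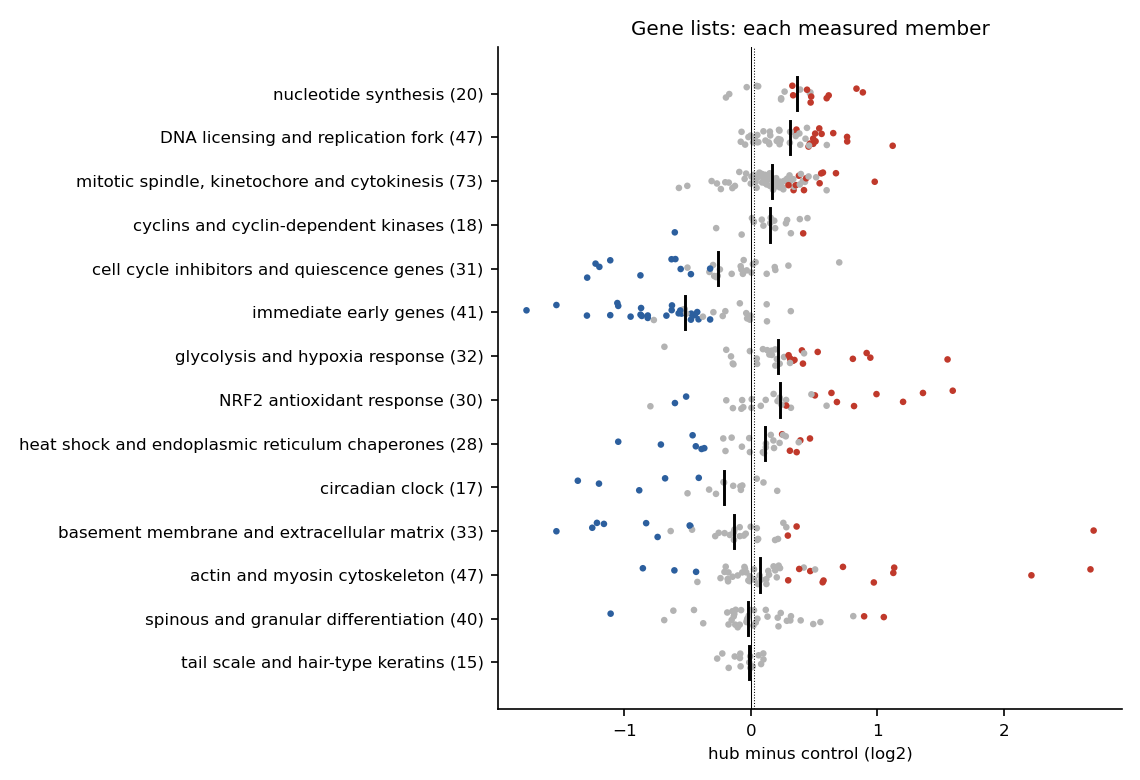
Difference between hub and control (x axis, log2) of every measured member of 14 gene lists, with the number measured after each name. Red points were called higher, blue points lower and grey points neither, black bars are list medians, and the dotted line is the median of all genes at 0.03. Immediate early genes lie mostly to the left and nucleotide synthesis mostly to the right, while tail scale keratins gather around 0.

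Of 26 basal and stem cell markers of the interfollicular epidermis, 4 were lower and 1 higher (0 without hub replicates 1 or 3 or control replicate 1). Krt15, a keratin of resting basal cells and the bulge, read 10.96, 11.08 and 11.10 in the controls and 9.98, 9.86 and 9.75 in the hub, a 2.27-fold lower signal (adjusted p = 0.000116). Id3, an inhibitor of differentiation (-0.61 ± 0.10), and Dst, the plakin of hemidesmosomes (-0.48 ± 0.07), fell, whereas Trp63, the factor that specifies stratified epithelium, read 12.34, 12.44 and 12.30 against 12.29, 12.27 and 12.31 (adjusted p = 0.659). Of 40 spinous and granular genes, 2 were higher (5%, against 4.16% of all genes) and 1 lower (2.5%, against 3.12%), and only 1 was higher without hub replicate 2 or control replicates 2 or 3. Tgm1, the membrane transglutaminase, rose from 7.91, 8.10 and 7.98 to 8.92, 9.25 and 8.97 (1.05 ± 0.17) and Krt80 fell (-1.11 ± 0.14).

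The early differentiation keratins Krt1 (12.84, 12.54 and 12.48 in the controls, 12.97, 13.13 and 12.94 in the hub) and Krt10 (12.73, 12.71 and 12.86 against 12.75, 12.75 and 12.70) were abundant in both groups although the cells were sorted as basal, and neither was called. None of 15 tail scale and hair-type keratins was called. Krt36 read 12.34, 12.20 and 11.86 against 12.14, 11.86 and 11.87, and Krt84 read 11.16, 11.06 and 10.97 against 11.15, 10.85 and 10.52, so the keratins that mark the scales of tail skin overlapped between hub and control. In the leading edge Krt36 read 7.83, 7.58 and 6.94, and Krt84 read 7.06, 6.63 and 7.18. Krt2, a keratin of the upper epidermis, was not called either (adjusted p = 0.691), at 12.62, 12.54 and 12.61 in the controls, 12.25, 12.35 and 12.38 in the hub and 5.99, 6.50 and 7.35 in the leading edge. Its hub arrays all lay below its control arrays. The spread behind that p takes in the leading edge arrays, which lay far apart, so the missing call does not show equal levels.

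Wound keratins and alarmins are the classical markers of injured epidermis. Of 32 measured, 8 were called higher and none lower, 3 of them in every fit, and the count was 4, 5 and 4 without hub replicates 1 to 3 and 4 without control replicate 1. Krt16 read 12.20, 12.10 and 12.13 in the controls and 12.86, 12.93 and 12.90 in the hub (0.76 ± 0.06, adjusted p = 0.000234), and Krt6a read 12.44, 12.65 and 12.68 against 13.15, 13.15 and 13.12 (0.55 ± 0.08). Both were already high in the controls and lie near the ceiling. Krt6b had the largest difference of all genes (4.31 ± 0.96, adjusted p = 0.0266), but its controls read 6.47, 11.27 and 7.38 against 12.67, 12.75 and 12.62 in the hub, so control 2 stood apart from the other controls, and the call was lost without any 1 hub replicate or control replicate 1 or 3. Control 2 was the lowest control for S100a8 (7.85, 6.39 and 7.81, against 9.86, 9.86 and 9.86 in the hub) and S100a9 (8.75, 7.12 and 9.06, against 9.73, 9.80 and 9.83), and S100a9 was not called (adjusted p = 0.0661). The alarmin cytokine Il33 was higher (8.28, 8.31 and 8.46 to 8.80, 9.34 and 9.33, 0.81 ± 0.15, lost without hub replicate 3).

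Of 10 small proline-rich genes, 4 were higher and held. Besides Sprr2d and Sprr2h, Sprr1b read 8.92, 8.60 and 8.29 against 10.06, 10.27 and 10.37 (1.63 ± 0.16) and Sprr2a1 read 12.87, 12.93 and 13.06 against 13.50, 13.56 and 13.50 (0.56 ± 0.08), while Sprr1a read 9.18, 9.98 and 10.11 against 9.80, 9.18 and 9.98 (adjusted p = 0.906). Members of this family are near copies of each other, and probe sets may not tell them apart. Of the genes that the study itself names as a general wound signature, 11 of 14 measured were called higher and none lower. The median was 1.56, and 8 of the 11 held in every fit. Ccna2, described above, is among the 14 and was not called. The study drew that signature from its earlier arrays of the same wound regions and named these genes from it, so the count is not independent evidence of their direction. Fscn1, the actin bundler fascin, read 8.45, 8.97 and 9.06 against 10.91, 11.14 and 11.08 (2.22 ± 0.15), and the EGF receptor ligand Epgn, one of the 3 that were not called, read 10.36, 10.01 and 10.18 against 9.91, 10.57 and 9.91.

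Among 14 EGF receptor ligands and receptors, the ligands Tgfa (7.19, 7.67 and 7.54 to 8.39, 8.25 and 8.89, 1.04 ± 0.17) and Ereg (5.37, 5.56 and 5.55 to 6.14, 6.20 and 6.43, 0.76 ± 0.10) were higher, although Ereg stayed below background in both groups. The receptor inhibitor Errfi1 fell (11.33, 11.48 and 11.85 to 10.25, 10.56 and 9.61, -1.41 ± 0.23), and the receptor Egfr itself was at the edge of the threshold (-0.30 ± 0.08, adjusted p = 0.0507). Hbegf, another ligand, read 11.05, 10.70 and 10.89 against 10.65, 10.72 and 10.69 (adjusted p = 0.267).

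Of 41 cytokines and cytokine receptors, 4 were higher and 4 lower. Il1f9, the interleukin-36γ gene, read 9.10, 9.90 and 10.21 in the controls and 10.88, 10.98 and 10.92 in the hub (1.19 ± 0.23), and the receptor Il4ra was higher (0.71 ± 0.13). The signalling inhibitor Cish (-1.31 ± 0.13) and the receptors Lifr (-0.70 ± 0.13) and Il6ra (-0.44 ± 0.07) were lower. Of 26 chemokines and their receptors, 5 were lower and none higher: Ccl20, which draws cells that carry CCR6, read 7.83, 7.96 and 9.16 against 6.76, 6.63 and 6.43, Cxcl16 read 10.74, 10.82 and 11.31 against 9.78, 9.82 and 9.64 (-1.21 ± 0.14), Cxcl14, made by resting keratinocytes, read 11.65, 11.53 and 11.48 against 10.42, 10.63 and 10.12 (-1.16 ± 0.14), and Ccl27a (-0.86 ± 0.17) and the scavenging receptor Ackr3 (-0.56 ± 0.10) were also lower. Ccl27a lost its call without hub replicate 3. Of 45 interferon-stimulated genes, 5 were lower, 3 without hub replicate 2 and 2 without hub replicate 3, and 3 were higher, and the typical members Ifit1 and Ifit3 lay below background in both groups.

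Of 32 genes of TGF-β, activin and BMP signalling, 2 were higher and 5 lower. Inhba, the subunit of activin A, read 6.46, 6.63 and 7.50 in the controls and 8.49, 9.31 and 9.06 in the hub (2.09 ± 0.28), and Ltbp1, which stores latent TGF-β in the matrix, read 8.14, 8.34 and 7.78 against 9.09, 9.33 and 9.45 (1.21 ± 0.14). Each of these genes also has a dimmer probe set, with a difference of -0.13 for Inhba and -0.01 for Ltbp1. Besides Bmp2, the BMP target Id4 fell (-1.01 ± 0.13, by 1 of its 3 probe sets), as did Id3 and Tgif1 (-0.78 ± 0.12), while Id1 (0.28 ± 0.09, adjusted p = 0.0873) and Id2 (-0.06 ± 0.14, adjusted p = 0.894) were not called. Of 43 Wnt genes, 3 were higher and 2 lower (1 in 6 of the 9 fits with an array left out). Wnt5a, a ligand of noncanonical signalling, read 6.31, 5.66 and 6.05 against 7.08, 7.35 and 7.49 (adjusted p = 0.00242), below background in all arrays but hub array 3, Porcn, which acylates Wnt ligands, was higher (0.84 ± 0.07), and the ligand Wnt3 fell from 9.15, 8.91 and 8.62 to 7.75, 7.56 and 7.82 (-1.18 ± 0.13). The Wnt target Axin2 differed by -0.24 ± 0.07 (adjusted p = 0.0727).

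Of 21 Notch genes, 3 were higher, 1 without hub replicate 2 or 3, and Hes1, a Notch target, was lower (-0.66 ± 0.14, lost without hub replicates 1 or 2 or control replicate 1), while Notch1 was not called (-0.18 ± 0.09, adjusted p = 0.328). Of 18 retinoid genes, 5 were higher, 3, 3 and 2 without hub replicates 1 to 3 and 2, 3 and 2 without control replicates 1 to 3, and 2 were lower. Rbp2, a retinol binding protein, rose from 6.81, 6.62 and 6.25 to 8.19, 8.46 and 8.27 (1.75 ± 0.15), and Cyp26b1, which degrades retinoic acid, rose too (0.75 ± 0.10), while the receptor Rarg fell (-0.46 ± 0.08). Of 24 p53 targets, 2 were higher (1 in 6 of the 9 fits with an array left out) and 1 lower, and Mdm2 was not called (0.05 ± 0.09). Of 13 IGF genes, the adaptor Irs1 (8.06, 7.82 and 8.33 to 7.16, 7.04 and 7.25, -0.93 ± 0.14) and Igfbp3 were lower, but Igfbp3 lost its call without any hub replicate or control replicate 1 or 2. Among 59 epidermal transcription factors, 10 were lower (5, 6 and 6 without hub replicates 1 to 3, and 6 without control replicate 2) and 6 higher (3 without hub replicate 3). Gata3 (-0.78 ± 0.11), Hopx (-0.67 ± 0.09) and Rora (-0.59 ± 0.07) fell, and Elk3 (1.02 ± 0.14) and Ppard (0.86 ± 0.11) rose.

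Of 47 actin and myosin genes, 11 were higher (6 without hub replicate 2 or 3) and 3 lower. Cald1 read 7.24, 6.18 and 6.23 in the controls and 8.95, 9.56 and 9.18 in the hub, Pdlim7, which links actin to kinases, read 8.18, 8.02 and 7.78 against 8.94, 9.18 and 9.24 (1.13 ± 0.11), and the crosslinker Actn1 read 10.07, 10.02 and 10.06 against 11.15, 11.26 and 11.14 (1.13 ± 0.07, adjusted p = 2.02e-05). The severing protein Gsn (-0.60 ± 0.07) fell. Of 11 tubulins, Tubb3 (5.77, 6.00 and 6.43 to 8.48, 7.75 and 8.22, 2.08 ± 0.20) and Tubb6 (11.23, 11.39 and 11.55 to 12.32, 12.22 and 12.38, 0.92 ± 0.09) were higher and none was lower.

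Of 31 integrin and focal adhesion genes, 2 were higher (1 without hub replicate 3 or control replicate 1) and 3 lower (1 without hub replicate 2). Itgb1, the β1-integrin chain, read 11.22, 11.36 and 11.37 in the controls and 11.71, 11.61 and 11.67 in the hub (0.35 ± 0.07, lost without hub replicates 1 or 3 or control replicate 1), Itga3 read 10.59, 10.85 and 10.73 against 10.78, 10.80 and 10.85 (adjusted p = 0.635), and Tns1, which binds integrin tails, fell (-0.89 ± 0.13). Of 25 desmosomal genes and cadherins, 3 were higher and 1 lower. Dsc2 crossed the background level, from 6.67, 6.80 and 7.23 to 9.21, 9.45 and 9.75, and its second probe set differed by 3.68, whereas Dsc3 (0.07 ± 0.07, adjusted p = 0.647) and Dsg2 (-0.04 ± 0.08) were not called. The other connexin called higher beside Gjb2 was Gjb6, encoding connexin 30, at 6.98, 6.43 and 6.42 against 7.38, 7.58 and 8.05 (1.06 ± 0.21).

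Of 33 genes of the basement membrane and extracellular matrix, 8 were lower and 3 higher (1 without any hub replicate or control replicate 1). The collagen IV chains Col4a5 (8.88, 8.81 and 8.84 to 7.48, 8.06 and 7.23, -1.25 ± 0.21) and Col4a6 (9.63, 9.47 and 8.95 to 8.15, 8.34 and 8.09, -1.16 ± 0.18), which are paired on the X chromosome, fell, as did the fibulin gene Efemp1 (-1.21 ± 0.16) and Fras1 of the epidermal-dermal junction (-0.74 ± 0.12). Of 44 extracellular proteases and inhibitors, 9 were higher and 7 lower. Klk10, a kallikrein, read 6.80, 7.37 and 8.14 against 9.25, 9.52 and 9.63 (2.03 ± 0.27), and the metalloproteinase gene Mmp3 fell from 9.64, 9.55 and 9.90 to 9.10, 8.72 and 8.51 (-0.92 ± 0.15). Mmp9 read 7.62, 7.16 and 6.35 against 9.99, 8.67 and 7.73, a wide spread within each group, and was not called (1.75 ± 0.50, adjusted p = 0.0679).

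Many of the genes named above differed between hub and leading edge as well as between hub and control. For some examples with the hub highest or lowest, values are given for all 3 regions as a description, and the list is not complete. P4ha3, a collagen prolyl hydroxylase subunit, read 6.55, 7.22 and 7.03 in the controls, 8.66, 8.54 and 8.77 in the hub and 8.07, 7.92 and 7.94 in the leading edge. Serpina3n, a secreted protease inhibitor, read 7.96, 8.06 and 8.23 in the controls, 9.11, 8.99 and 8.60 in the hub and 6.83, 6.81 and 7.09 in the leading edge. Both stood highest in the hub, and both were chosen after their values were seen. Cdt1, with 10.02, 9.78 and 9.90 in the leading edge, also stood highest in the hub. Prss23 read 9.35, 9.33 and 9.72 in the controls, 7.67, 8.03 and 7.74 in the hub and 10.06, 9.70 and 9.77 in the leading edge, and Mmp3 read 10.85, 10.70 and 10.64 in the leading edge, so both stood lowest in the hub. Fosl1, with 11.01, 10.93 and 10.98 in the leading edge, stood lowest in the hub too. The difference between leading edge and hub was -0.68 ± 0.15 for P4ha3 (adjusted p = 0.0189), -1.99 ± 0.14 for Serpina3n, -0.40 ± 0.08 for Cdt1, 2.03 ± 0.14 for Prss23 and 1.95 ± 0.15 for Mmp3, in a contrast that called 10.6% of all genes.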

How the data were processed

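Expression was measured on Affymetrix mouse strip arrays, 1 per sample. The authors normalized the arrays by the robust multi-array average and deposited log2 signals, which were used as given; no scanner files were used here. The table holds 45141 probe sets. In the platform annotation 28898 carry a single symbol, 551 carry several and 15588 carry none, and 104 are array controls. For each of 17097 genes the probe set brightest on average across the 9 arrays was kept. Group means of all 9 arrays were fitted with lmFit and eBayes of limma 3.58.1 in R 4.3.3, with Benjamini-Hochberg adjustment over all genes and a threshold of 0.05. The number of arrays, 3 in each group, limits the precision, and an exact permutation test of 3 against 3 cannot go below 0.1. On simulated data with 200 changed genes, the fit recovered 52.1% of log2 changes of 0.5, 92.7% of 1 and 99.1% of 2, and 4.84% of its calls were false.

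Genes named were the 15 largest rises and falls that were called in all 9 leave-one-out fits, did not overlap between groups and exceeded background in the higher group, up to 8 called members of each list together with its key members, the wound genes that the study names, and the genes of the sort. P4ha3, Serpina3n, Maff, Ppp1r15a, Srf and Top2a were added after their values were seen. The members and lists were chosen with earlier results of these data known. Promoter sequences were from RefSeq, build GRCm38.p6. Alternatives covered the replicate block, the variance model, array weights, scaling, the filter on dim genes, the choice of probe set, the arrays in the fit and the threshold.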

Additional observations from a re-analysis of the deposited data

Results flagged for a closer look

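Probe sets with no gene symbol were left out of every comparison above. When all probe sets were fitted together, 780 of the 15588 unnamed ones passed the threshold between hub and control (5.004%), 269 higher and 511 lower in the hub. In the same fit 2609 of all 45037 probe sets other than array controls passed. Whether the unnamed ones belong to transcripts of named genes was not tested.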

How the results depend on the processing

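The number of called genes was within 1.5 times that of the main analysis under a mean-variance trend, array weights, both scalings, the filter on dim genes, and the mean or middle-rank probe set. It was 2609 over all probe sets (1206 higher, 1403 lower, 415 of at least 2-fold) and 766 with the hub and control arrays alone (407 higher). It was 186 with a 2-fold minimum (100 higher, 86 lower), 497 at an adjusted p under 0.01 (275 and 222), 89 by a 2-fold rule in each same-numbered pair (51 and 38) and 63 by that rule in all 9 pairs (39 and 24). With 1 array left out it ran from 699 to 1153, with 373 to 641 higher, 326 to 512 lower and 160 to 201 of at least 2-fold. With the replicate number as a block, 1006 genes were called (534 higher, 472 lower), 948 of them among those called without it. Deviations of same-numbered hub and control arrays correlated at 0.02, -0.02 and 0.08, and hub arrays 1 and 3 but not 2 matched their own number best. With 3 arrays in each group, these values cannot settle whether the numbers pair the samples. With the middle-rank probe set, Klf9, called lower by 4 of its 5 probe sets, turned to 0.0778 and Ltbp1 to -0.0129; the cause was not tested. Calls of Fkbp5, Hspb8, Id4, Itgb1, Mxd4 and Tgfa were lost with that probe set, and those of Cycs, Fkbp5, Gstm1, Hif1a, Itgb1, Msmo1, Mxd4, Srf, Tnfaip3 and Ttk with the mean of all probe sets. With the hub and control arrays alone, those of Aurka, Car13, Cdc20, Cycs, Dnajb11, Hes1, Il1f9, Krt6b, Lifr, Maff, Pdia4 and Plk1 were lost. The block lost those of Aurka, Car13, Cdc20, Cycs, Itgb1 and Pdia4. Calls lost under both scalings included those of Aurka and Cdc20, and Aurka also lost its call with the mean-variance trend. Signals near the ceiling or the background may understate changes.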
